A study of Homo sapiens with 12 samples.

Results

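The cytosolic ribosomal protein genes were followed in human IMR90 lung fibroblasts driven into senescence by oncogenic Ras. A gene was a member when its symbol had the form RPL or RPS and a number, with A, X, L, L1 or nothing after it, or was RPLP0, RPLP1, RPLP2 or RPSA, and its value was 10 or more in at least 2 of the 12 libraries. The deposited table holds 27106 genes. Of these, 84 symbols matched and 79 passed the minimum, 30 of the small and 49 of the large subunit. All 79 passed in 12 of 12 libraries, and the one with the lowest mean was RPL36A at 139.5 normalized counts. Among the 5 symbols outside were RPL3L, with a highest value of 0.898, RPL10L (1.11), RPL21 (1.18) and RPS18, which is listed at 0 throughout. RPL21 and RPS18 encode subunits that every cell uses, so a value at or near 0 here shows only what the table lists.

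The cells are an established fibroblast line carrying hTERT, the catalytic subunit of telomerase, and a Ras-ERT2 fusion that tamoxifen (200 nM) switches on, with ethanol as its control. Doxycycline (0.5 ug/ml) induced either a scramble hairpin RNA (shScr) or 1 of 2 hairpins against the interleukin-1 receptor (shIL1R), a receptor that drives much of the secretory program of senescent cells. Poly(A) RNA was sequenced from growing cells (day 0), at the onset of secretion (day 4) and from senescent cells (day 10), with 2 libraries in each of the 6 groups. The labels do not say whether libraries 1 and 2 of shIL1R carry different hairpins, or whether any pair came from separate cultures, so the spread that p-values are set against is that between these samples and may be technical. Ras activation and time in culture both separate day 0 from the later days and cannot be told apart. These are bulk samples, in which fewer cells of a type and less RNA per cell cannot be told apart.

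Each ribosome joins a small subunit, which reads the mRNA, to a large subunit, which forms the peptide bond, and each subunit is built from ribosomal RNA and about equal amounts of its proteins. Most of these mRNAs begin with a C followed by an unbroken run of pyrimidines, the 5′ terminal oligopyrimidine (TOP) tract, through which the growth kinase mTORC1 and the RNA-binding protein LARP1 set their translation. Several ribosomal proteins act outside the ribosome as well. RPL5, RPL11 and RPL23 bind MDM2, a ubiquitin ligase, when ribosome assembly fails, and stalled ribosome assembly has been linked to senescent arrest in fibroblasts.

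Libraries held 24140324 to 30127727 recovered reads, and 1 read equalled 0.834 to 1.20 normalized counts. The receptor mRNA IL1R1 lay between 1240 and 1580 normalized counts in the 6 shScr libraries and between 86.4 and 731 in the 6 shIL1R libraries. Its log2 difference between the hairpins was −1.54 ± 0.42 (SE) at day 0 (limma adjusted p = 0.281), −3.27 ± 0.42 at day 4 (0.0205) and −2.28 ± 0.42 at day 10 (0.0102). Fibroblast markers were present (7 of 7, summed level 311453 to 476045 normalized counts), while KRT5, KRT14, CDH5 and CD3E, defining markers of epithelium, endothelium and T cells, were listed at 0 in all 12 libraries. Of the other cell types' lists, 1 of 6 epithelial, 3 of 5 endothelial and 1 of 6 leukocyte markers passed the minimum, and the summed endothelial list went from between 8.34 and 18.4 at day 0 to between 123 and 285 at day 10. The summed leukocyte list, nearly all of it the lysosomal gene CD68, went from between 2848 and 3149 to between 5794 and 8934, and the summed epithelial list lay between 47.3 and 177. In shIL1R cells the epithelial sum was 47.3 to 74.5 at day 0, 118 to 177 at day 4 and 88.0 to 109 at day 10, without overlap with day 0, and its 1 tested marker was called higher at both days. The share of reads on the ribosomal RNA precursor locus RNA45S5 was 1.34 to 1.47% at day 0, 1.77 to 3.41% at day 4 and 2.51 to 2.999% at day 10. The part of these lists and of this locus in the results below was not tested.

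The sequences at the annotated transcription starts are shown because the TOP tract is the regulatory element these genes share. RefSeq start sequences (GRCh38.p14) matched 64 of the 79 members. Each line below gives 10 bases before the start and 20 from it, 5′ to 3′ on the gene's strand, with capitals for the pyrimidine run that opens at the start with a C and holds at least 4 further C or T. The first 4 genes were among the largest rises at day 10 in shScr cells, and RPSA fell there. The next 3 pairs set a ribosomal protein against the sequence-related copy (paralog) of its gene, and RPL7L1, a paralog, stands alone because its parent RPL7 had no sequence.
RPS24 (chr10:78033853-78033882, plus): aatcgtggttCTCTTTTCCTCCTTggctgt
RPL28 (chr19:55385922-55385951, plus): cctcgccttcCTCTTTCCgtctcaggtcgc
RPL36 (chr19:5690285-5690314, plus): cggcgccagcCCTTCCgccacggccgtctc
RPS28 (chr19:8321486-8321515, plus): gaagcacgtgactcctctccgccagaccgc
RPSA (chr3:39406710-39406739, plus): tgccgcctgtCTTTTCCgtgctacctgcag
RPL26 (chr17:8383174-8383203, minus): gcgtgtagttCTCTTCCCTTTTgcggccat
RPL26L1 (chr5:172958719-172958748, plus): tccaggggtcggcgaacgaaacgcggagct
RPL22 (chr1:6199576-6199605, minus): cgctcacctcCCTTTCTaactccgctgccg
RPL22L1 (chr3:170870176-170870205, minus): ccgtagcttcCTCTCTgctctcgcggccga
RPS27 (chr1:153990752-153990781, plus): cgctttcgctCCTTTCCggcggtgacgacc
RPS27L (chr15:63157458-63157487, minus): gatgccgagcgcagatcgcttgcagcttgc
RPL7L1 (chr6:42879606-42879635, plus): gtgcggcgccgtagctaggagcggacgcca

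Such a start was found in 45 of the 64 matched members (70.3%), against 5.14% of all 27305 genes with a start sequence and 7.27% of the tested genes that have one. Among members with several annotated starts, any 1 counted, and over single starts the share was 45 of 80 (56.3%) against 4.07% of all 35116. RPL26L1, RPL7L1 and RPS27L, 3 of the paralogs, had no such start, whereas RPL22L1 had one. RPS28 and 15 other members also had none by this rule (RPL10A, RPL15, RPL17, RPL19, RPL27, RPL3, RPL32, RPL4, RPL6, RPL9, RPS15, RPS26, RPS29, RPS4X and RPS7). The search covered the gene's own strand at the annotated base only, so no match says no more than that these letters are not at that base. Members without a sequence in the table included RPL23, RPL23A, RPL30, RPL37, RPL39L, RPL5, RPL7, RPL8, RPS15A, RPS2 and RPS20.

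In shScr cells the ribosomal protein mRNAs stood at about their growing level at day 4 and higher at day 10, and in shIL1R cells they were higher at both days. The 79 genes took 3.72% and 3.83% of reads in the shScr libraries of day 0, then 3.56% and 3.66% by day 4 and 4.23% and 3.76% by day 10. In shIL1R cells the shares were 3.47% and 3.31% at day 0, then 4.27% and 4.22% by day 4 and 5.13% and 4.70% by day 10. The exact 95% binomial interval of a share was ± 0.00653 to ± 0.00880 percentage points and covers counting error only, and the libraries of a group differed by far more than that. The day 10 libraries of shScr overlapped the day 0 shares, and those of shIL1R did not. Levels of single genes are given below in normalized counts, the deposited unit.

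**Figure D1:**
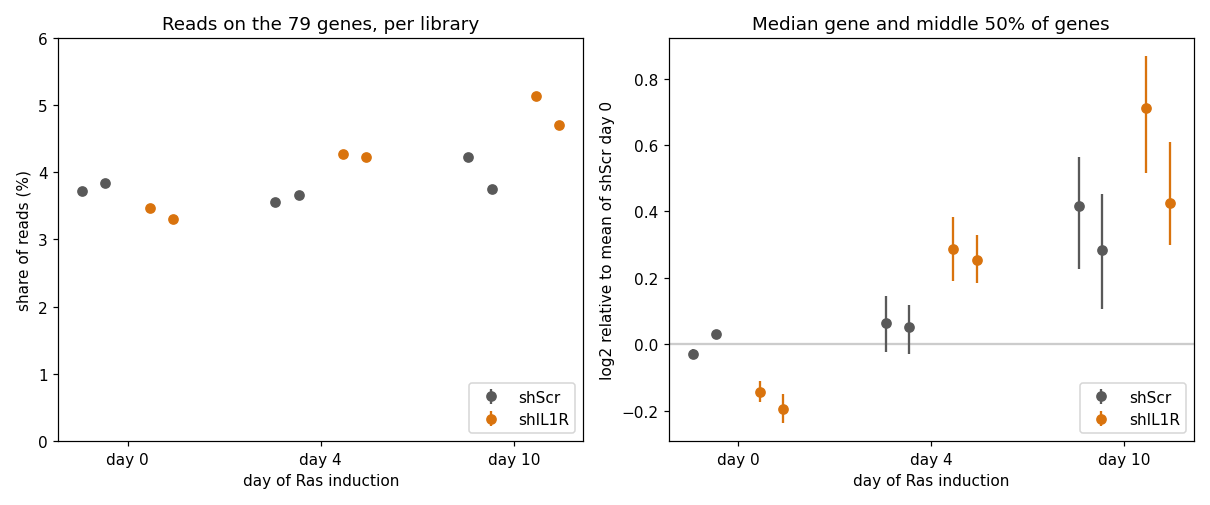
Left, the percent of recovered reads on the 79 ribosomal protein genes in each of the 12 libraries by day, for shScr and shIL1R. Right, the median log2 level of the 79 genes in each library relative to the mean of shScr day 0, with bars for the middle 50% of genes. The 2 shIL1R libraries of day 10 stand highest on both panels, at 5.13% and 4.70% of reads and at medians of 0.71 and 0.43.

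Seen gene by gene, the median log2 level of the 79 members relative to the shScr day 0 mean was −0.14 and −0.19 in the shIL1R libraries of day 0. At day 4 it was 0.06 and 0.05 in shScr and 0.29 and 0.25 in shIL1R. By day 10 it had reached 0.42 and 0.29 in shScr and 0.71 and 0.43 in shIL1R. The shIL1R libraries were thus the lowest of the series at day 0 and stood above the shScr ones of the same day at day 4 and day 10, and library 1 of shIL1R day 10 stood above library 2. The summed mRNA level of the small-subunit genes over that of the large lay between 0.531 and 0.571 in all 12 libraries. In shScr this ratio was 0.554 and 0.559 at day 0, then 0.544 and 0.546 by day 4 and 0.534 and 0.533 by day 10, without overlap between days. In shIL1R it was 0.562 and 0.554, then 0.571 and 0.545, then 0.559 and 0.531. Whether the ratio changed was not tested. Per kilobase of transcript (GENCODE 29, 1 transcript a gene, 296 to 7686 bases), the mean level was highest for RPL41 (56285 normalized counts per kb), RPS2 (36933) and RPS27 (34959). It was lowest for RPL36A (325), RPL22L1 (498) and RPS27L (620), and the other paralogs RPL39L (660), RPL7L1 (772) and RPL26L1 (965) followed next, against a median over members of 16893. These ranks depend on the transcript chosen. That of RPS27L has 6434 bases, and its mean level of 3990 normalized counts lay above that of RPL13A (3691).

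At day 4 few members moved in shScr cells. A gene was called below an adjusted p of 0.05 in limma, with the adjustment over all 13924 tested genes. Of the 79 members 2 were higher and 4 lower, that is 2.53% and 5.06%, against 19.4% of all tested genes called higher and 18.9% called lower. The members' median log2 change was 0.05, against −0.01 over all tested genes. RPS28, a small-subunit protein next to the mRNA exit, rose by 0.40 ± 0.08 (SE, adjusted p = 0.00243), and RPS27L, a paralog of RPS27, rose by 0.40 ± 0.14 (0.0457). The 4 that fell were RPL39L (−1.15 ± 0.18, adjusted p = 0.000653), RPL26L1 (−0.57 ± 0.11, 0.00236), RPL22L1 (−0.38 ± 0.09, 0.00805) and RPSA, which also serves as a laminin receptor (−0.34 ± 0.08, 0.00818). The first 3 of these are paralogs. The count of higher members was 8 without either shIL1R day 10 library and 1 without any library of the other groups except those of shIL1R day 4, RPS27L losing its call (adjusted p = 0.0619 to 0.173). Without shScr day 0 replicate 2 the lower count was 2, with RPL22L1 at 0.0655 and RPSA at 0.0734. RPL22L1 also missed without shScr day 4 replicate 2 (0.0577) and RPSA without shScr day 4 replicate 1 (0.0535).

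Between growing and senescent shScr cells most members rose. At day 10 against day 0, 52 of 79 members were called higher (65.8%) and 6 lower (7.59%), against 32.5% and 31.3% of all tested genes. The median log2 change was 0.36, a 1.29-fold rise, with the middle 50% of members between 0.16 and 0.50, while that of all tested genes was 0.01 with the middle 50% between −0.58 and 0.59. The libraries of the 2 days did not overlap for 63 members that were higher and 7 that were lower. For such counts, here and below, the share over all tested genes was not computed, so they have no background beside them. Small-subunit genes had a median of 0.34 (18 higher and 1 lower of 30) and large-subunit genes one of 0.39 (34 higher and 5 lower of 49). Scaled to the library total instead, all tested genes shifted to a median of −0.23 and split into 3260 higher and 5789 lower calls instead of 4523 and 4356. The members then had a median of 0.13 with 25 called higher and 10 lower. Their distance above the median of all genes was 0.36 under both scalings. This had to be so, because a scaling moves all genes of a library alike. Of the called genes described below, RPL3 (0.12, limma adjusted p = 0.242), RPL11 (0.15, 0.142), RPL23 (0.05, 0.590), RPL39 (0.19, 0.146), RPS27A (0.12, 0.343) and RPS27L (0.14, 0.401) did not pass under that scaling. RPLP0 (−0.21, 0.0293) and RPL10 (−0.24, 0.0218), not called otherwise, were then called lower.

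**Figure D2:**
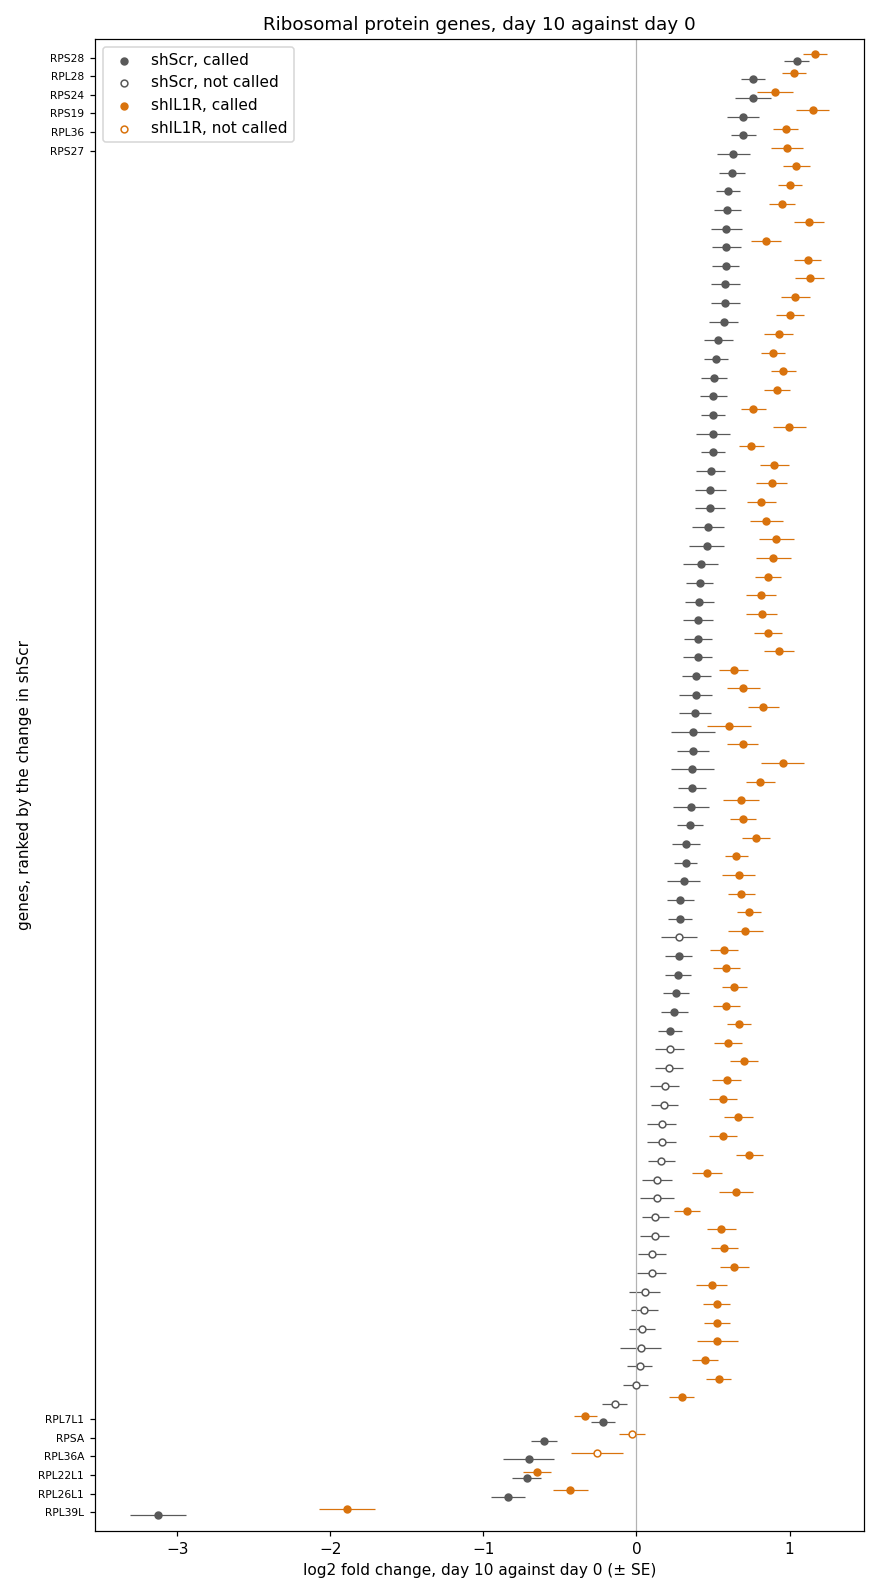
The log2 change from day 0 to day 10 of each of the 79 genes, ranked by the change in shScr cells, with ± SE bars; shScr in grey, shIL1R in orange, filled points for an adjusted p below 0.05 and names for the 6 highest and 6 lowest genes. The 5 lowest genes in shScr are RPL39L, RPL26L1, RPL22L1, RPL36A and RPSA, and the highest is RPS28 at 1.05.

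RPS28 rose most among the called members. Its level was 4163 and 4520 normalized counts in the shScr libraries of day 0, then 5739 and 5682 by day 4 and 8943 and 8964 by day 10. In shIL1R cells it was 4164 and 4183, then 6289 and 6816, then 9838 and 8930. No library of a later day overlapped an earlier one in either genotype, and the genotypes overlapped at day 0 and day 10. The log2 change to day 10 was 1.05 ± 0.08 in shScr (SE, adjusted p = 7.8e-07) and 1.17 ± 0.08 in shIL1R (5.21e-07).

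Next came RPL28, a large-subunit protein, with 10314 and 9909 normalized counts in shScr at day 0, then 12058 and 11259 by day 4 and 17595 and 16737 by day 10. It rose by 0.76 ± 0.08 (SE, adjusted p = 7.51e-06). RPS19 and RPS24, small-subunit proteins whose loss causes Diamond-Blackfan anaemia, moved likewise. RPS19 went from 12846 and 12935 at day 0 to 21963 and 19920 at day 10, a change of 0.70 ± 0.10 (0.000145). RPS24 went from 11177 and 11846 to 19763 and 19285, a change of 0.76 ± 0.12 (0.00019). Their day 0 and day 10 libraries lay well apart, with day 4 between them. RPL36 (0.70 ± 0.08, 2.37e-05) and RPS27, a zinc-finger protein of the small subunit (0.63 ± 0.11, 0.000325), completed the 6 largest rises.

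The 21 members that did not pass included some of the best known. RPLP0, the base of the acidic stalk that recruits elongation factors and a common reference gene, was at 38811 and 38927 normalized counts in shScr at day 0, then 37974 and 37215 by day 4 and 40402 and 38455 by day 10. Its log2 change to day 10 was 0.02 ± 0.08 (SE, adjusted p = 0.845), and the libraries of the 2 days overlapped. The stalk dimer proteins RPLP1 (0.26 ± 0.08, 0.0174) and RPLP2 (0.50 ± 0.08, 0.000229) were called higher. RPL10, which joins the large subunit last, had 27136 and 27538 at day 0 and 28780 and 25792 at day 10, also overlapping (−0.00 ± 0.08, 0.962). RPS6, the target of S6 kinase, gave 0.13 ± 0.11 (0.317), RPS3, which also acts in DNA repair, 0.17 ± 0.09 (0.148), and RPS2, 0.16 ± 0.09 (0.143). The remaining 16 lay between −0.14 (RPS23) and 0.28 (RPL9).

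The rise in shScr cells came mostly after day 4. Between day 4 and day 10, 43 members were higher and 4 lower, against 21.7% and 22.4% of all tested genes, with a median of 0.28 for the members. RPL36 (0.66 ± 0.08, SE, adjusted p = 0.000124), RPS28 (0.65 ± 0.08, 0.000103), RPL28 (0.56 ± 0.08, 0.000237), RPS24 (0.52 ± 0.12, 0.00481), RPL13 (0.51 ± 0.09, 0.0014) and RPS27 (0.50 ± 0.11, 0.00301) rose most. RPL39L (−1.98 ± 0.18, 2.26e-05), RPL36A (−0.58 ± 0.17, 0.0158), RPL22L1 (−0.34 ± 0.09, 0.0131) and RPSA (−0.26 ± 0.08, 0.0261) fell. The higher count was 28 without shScr day 4 replicate 1, 26 without its replicate 2 and 21 without shScr day 10 replicate 1. The lower count was 2 without either shScr day 4 library and 1 without shScr day 10 replicate 2, where RPL36A (adjusted p = 0.0697), RPL22L1 (0.0888) and RPSA (0.126) missed. RPSA also missed without each of the other 3 libraries compared (0.054 to 0.116), RPL22L1 without shScr day 4 replicate 1 (0.0833) and RPL36A without its replicate 2 (0.0832). Across both steps in shScr, with no overlap between the libraries of successive days, 41 members went up and 6 went down (RPL39L, RPL26L1, RPL22L1, RPL36A, RPSA and RPS23). This count was not made over all tested genes.

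With the receptor hairpin most members were called higher already at day 4. Tested directly against the shScr change to day 4, 0 members differed in limma. The shIL1R cells also started from lower values at day 0, by a median of −0.17 on the log2 scale with 0 members called. In shIL1R cells 73 members were higher and 2 lower at day 4 against day 0, compared with 20.1% and 20.3% of all tested genes, and the median was 0.44 (1.36-fold). RPL34 (0.65 ± 0.09, SE, adjusted p = 0.000362), RPL17 (0.65 ± 0.09, 0.000382) and RPS28 (0.65 ± 0.08, 0.000133) led, and the 4 members that did not pass were RPL26L1, RPL36A, RPL22L1 and RPSA. Those that fell were RPL39L (−0.66 ± 0.18, 0.0153) and RPL7L1 (−0.24 ± 0.08, 0.0307). That lower count was 0 without shIL1R day 0 replicate 1 or day 4 replicate 1, and 1 without the second library of either group. Neither day 4 shIL1R library overlapped the day 0 ones for 74 members that were higher, a count not made over all tested genes.

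By day 10 against day 0 73 of 79 members were again higher in shIL1R and 4 lower, against 30% and 30.3% of all tested genes. The median log2 change was 0.71 (1.64-fold), and the libraries did not overlap for 73 members that were higher and 5 that were lower. Overlap was not counted over all tested genes. RPS28 (1.17 ± 0.08), RPS19 (1.15 ± 0.10), RPL17 and RPL26 (1.13 ± 0.09 and 1.13 ± 0.10) and RPL37 (1.12 ± 0.09) rose most, by 2.17 to 2.25 times. RPS19 went from 11858 and 11270 normalized counts at day 0 to 28655 and 22973 at day 10. RPL39L (−1.89 ± 0.18, SE, adjusted p = 6.76e-06), RPL22L1 (−0.65 ± 0.09, 0.000121), RPL26L1 (−0.43 ± 0.11, 0.00666) and RPL7L1 (−0.33 ± 0.08, 0.0032) fell, all 4 of them paralogs. RPL26L1 missed without shIL1R day 0 replicate 1 (adjusted p = 0.0738). Scaled to the library total, the split of all tested genes was 3163 higher and 5362 lower instead of 4183 and 4213, their median shifted to −0.17, and the members' median was 0.53.

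From day 4 to day 10, 44 members were higher and 2 lower in shIL1R (17.6% and 18.3% of all tested genes), with a median of 0.28, as in shScr cells over that step. This count was 28 without shIL1R day 4 replicate 1, 24 without its replicate 2 and 23 without shIL1R day 10 replicate 1, and 5 when the 2 groups were fitted alone. Both members that fell were paralogs, RPL39L (−1.23 ± 0.18, SE, adjusted p = 0.000579) and RPL22L1 (−0.71 ± 0.09, 0.000266). Across both steps, again with no overlap between the libraries of successive days, 62 members went up and 3 went down (RPL26L1, RPL39L and RPL7L1). All tested genes were not counted in this way. The day 10 changes of the 2 genotypes share no library. All 52 members called higher in shScr were among the 73 of shIL1R (100% of the first and 71.2% of the second list), and 4 members fell in both (66.7% of 6 and 100% of 4). Because 73 of the 79 members were called higher in shIL1R, most of any such list would lie among them. The share of all tested genes called with both hairpins was not computed. Over the 79 members the 2 changes had a Spearman correlation of 0.93 and a Pearson correlation of 0.96, a description across genes measured in the same libraries, and both were 0.93 over the 74 members left without the 5 L-named paralogs.

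The hairpins were then compared at each day. At day 0, 0 members were called higher or lower in shIL1R than in shScr, against 0.0287% and 0.0359% of all tested genes. With unadjusted p under 0.05 there were 22, and edgeR and DESeq2 on the recovered reads called 0 as well. The median log2 difference was −0.17, against −0.01 over all tested genes. Of 79 differences 78 were below 0, and the libraries did not overlap for 75 members that were lower. No share over all tested genes was computed for counts of unadjusted p, of signs or of libraries without overlap, here and below. The members are measured in the same libraries, so these counts are not independent evidence. At day 4, 0 were called either way (0.0431% and 0.237% of all tested genes) in limma and in edgeR, and 5 were higher in DESeq2. The median there was 0.23, with 77 differences above 0 and 51 members with an unadjusted p under 0.05. Without either shIL1R day 10 library, the limma count at day 4 was 17 higher and 1 lower.

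At day 10, 12 members were higher in shIL1R and 0 lower, against 4.37% and 4.85% of all tested genes, so the higher share of 15.2% stood above the background of its direction. The median was 0.24. The differences were above 0 for 78 members and 55 had an unadjusted p under 0.05 in limma, counts without a share over all tested genes. RPL39L differed most (1.15 ± 0.18, SE, adjusted p = 0.00554). It was followed by RPS29 (0.39 ± 0.09, 0.0268), RPS16 (0.37 ± 0.09, 0.0275), RPS7 (0.37 ± 0.09, 0.0374), RPL37 (0.36 ± 0.09, 0.0293) and RPL26 (0.36 ± 0.10, 0.0466). Among the others were RPL10, RPL17, RPS9, RPSA and RPS23, at 0.30 to 0.35. This count rests on single libraries and on the fit: with the compared groups alone 0 were called (RPL39L adjusted p = 0.115), and scaled to the library total 40. It was 0 without shScr day 10 replicate 2, where RPL39L gave an adjusted p of 0.0661, and 36 without shIL1R day 10 replicate 2. Without any 1 of the other 10 libraries it lay between 3 and 7, the 3 without either shScr day 0 library.

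**Figure D3:**
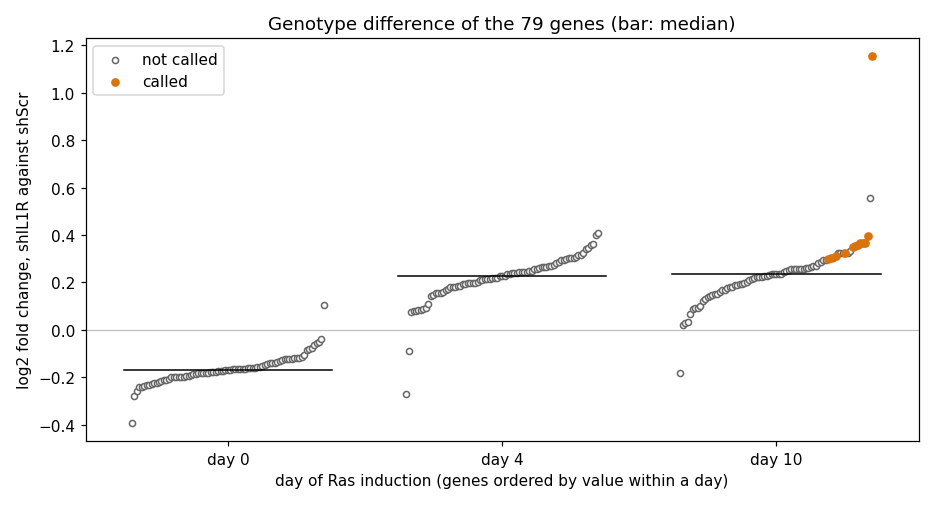
The log2 difference between shIL1R and shScr for each of the 79 genes at days 0, 4 and 10, with the median as a bar and called genes in orange. The medians are −0.17, 0.23 and 0.24, and the 12 called genes are all at day 10.

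Whether the change from day 0 differed between the hairpins was tested directly. For the change to day 4, 0 members differed in either direction in limma (0% and 0.0287% of all tested genes). The median difference of changes was 0.40, and 67 members had an unadjusted p under 0.05, a count without a share over all tested genes. edgeR called 0 and DESeq2 6, all higher in shIL1R. For the change to day 10 the median was 0.42, and 68 members had an unadjusted p under 0.05, again without a share over all tested genes. After adjustment 4 members had a larger value in shIL1R and 0 a smaller one, against 0.876% and 1.54% of all tested genes. These were RPL39L (1.23 ± 0.26, SE, adjusted p = 0.0359), RPSA (0.58 ± 0.12, 0.0325), RPS16 (0.57 ± 0.12, 0.0373) and RPL10 (0.54 ± 0.11, 0.0363). The count was 0 without any 1 of the 4 day 0 libraries or without shScr day 10 replicate 2. It was 1 without either shScr day 4 library, 2 without either shIL1R day 4 library or shScr day 10 replicate 1, 17 without shIL1R day 10 replicate 1 and 50 without its replicate 2. A difference of changes contains the day 0 difference between the hairpins, which was below 0 for 78 members.

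RPSA and RPL10 show the pattern at the level of libraries. RPSA had 10618 and 11248 normalized counts in shScr at day 0, then 8507 and 8722 by day 4 and 7366 and 7004 by day 10. In shIL1R it had 9277 and 8764, then 9968 and 10421, then 9488 and 8257. Its fall in shScr was −0.61 ± 0.08 (SE, adjusted p = 8.21e-05), with no overlap between days, whereas in shIL1R the day 0 and day 10 libraries overlapped (−0.03 ± 0.08, 0.798; −0.21 and 0.0370 under library-total scaling). RPL10 in shIL1R went from 24205 and 23813 at day 0 to 29798 and 30155 by day 4 and 35363 and 34266 by day 10, a change of 0.54 to day 10 without overlap. RPS16, a small-subunit protein near the decoding site, went from 9592 and 9911 to 11595 and 10265 in shScr, and from 8638 and 8243 to 14944 and 13230 in shIL1R.

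The paralogs were set against the genes they resemble. Of 8 pairs listed, 6 had both genes above the minimum, and the log2 ratio of paralog to parent was compared between the 4 libraries of day 0 and the 4 of day 10, both hairpins together. The ratio fell in 5 pairs with no overlap, each with an exact two-sided permutation p of 0.0286, the smallest that 4 against 4 libraries allow, and 0.0343 after adjustment over the 6 pairs. Libraries were permuted without regard to hairpin, although each day holds 2 libraries of each. A permutation kept within each hairpin has fewer arrangements and a larger smallest p, and it was not run. RPL39L to RPL39 fell by 3.17, from −3.18 ± 0.10 to −6.35 ± 0.60 (SD, n = 4 each, exact permutation test). RPL26L1 to RPL26 fell by 1.49, RPL22L1 to RPL22 by 0.91, RPL7L1 to RPL7 by 0.57 and RPS27L to RPS27 by 0.32. For RPL7L1 the fall was 0.352 within shScr and 0.797 within shIL1R, 2 libraries against 2. RPL36AL to RPL36A, of which only RPL36A is a member, differed by 0.13 with overlapping libraries (exact permutation p = 0.314).

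**Figure D4:**
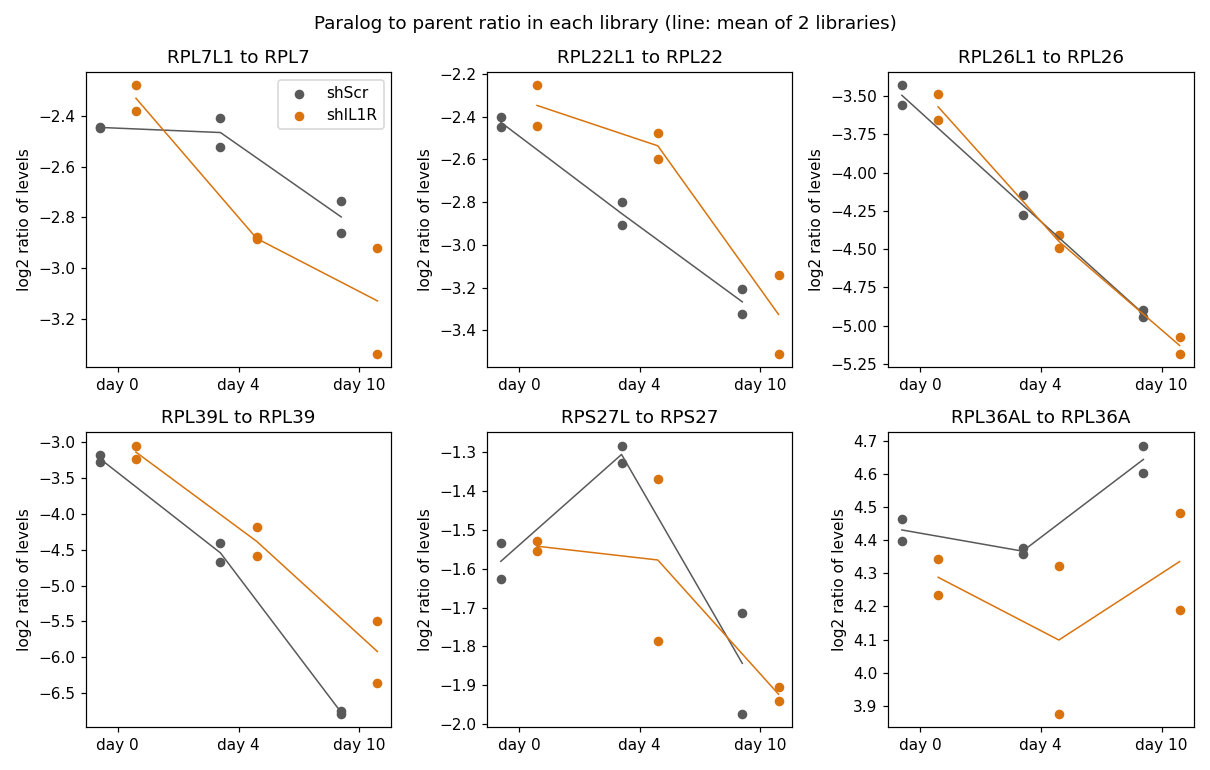
The log2 ratio of paralog to parent gene in each library by day for 6 pairs, shScr and shIL1R, with lines through the mean of the 2 libraries. The RPL39L to RPL39 ratio falls from about −3.18 at day 0 to −6.35 at day 10, and the RPL36AL to RPL36A ratio overlaps between these days.

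RPL39L is the autosomal copy of the X-linked RPL39, which lines the peptide exit tunnel, and is best known from male germ cells and tumours. Its level in shScr was 727 and 807 normalized counts at day 0, then 384 and 310 by day 4 and 90.9 and 83.0 by day 10. In shIL1R it was 794 and 661, then 426 and 493, then 162 and 234. Both genotypes fell at each step without overlap, and the shIL1R libraries of day 10 lay above the shScr ones. RPL39 itself was at 7014 and 7319 in shScr at day 0 and 10178 and 9037 at day 10 (0.42 ± 0.11, SE, adjusted p = 0.00754), missing without shScr day 10 replicate 1 (0.0657). RPL39L thus made up 9.39 to 10.8% of the pair's counts at day 0 and 0.885 to 2.17% at day 10. The fold change of RPL39L in shScr was −3.13 ± 0.18 on the log2 scale (adjusted p = 1.4e-07).

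The coding sequences of the pair are shown because reads inside them can be told apart only where the 2 differ. The transcripts used here are longer, 401 bases for RPL39 and 653 for RPL39L, and their parts outside the coding sequence were not compared. They are 153 bases each, from GENCODE 29 on GRCh38, with capitals where the 2 differ. RPL39 lies on chromosome X from 119786687 to 119791576 (minus strand, 3 coding exons) and RPL39L on chromosome 3 from 187121148 to 187121300 (minus strand, 1 coding exon).
RPL39: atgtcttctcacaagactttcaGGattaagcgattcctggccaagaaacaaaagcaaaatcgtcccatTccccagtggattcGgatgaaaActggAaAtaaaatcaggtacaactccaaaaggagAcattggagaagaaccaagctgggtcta
RPL39L: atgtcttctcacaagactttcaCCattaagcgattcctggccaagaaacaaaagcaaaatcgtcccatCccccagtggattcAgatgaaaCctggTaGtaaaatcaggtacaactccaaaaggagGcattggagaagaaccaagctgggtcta
The pair is identical at 145 of 153 positions (94.8%), and the longest identical stretch is 44 bases, so a read inside it could be placed on either gene and the split of coding reads is uncertain. The other pairs are less alike, at 84.1% for RPL26 and RPL26L1, 77.8% for RPS27 and RPS27L, 66.6% for RPL22 and RPL22L1 and 55.2% for RPL7 and RPL7L1. RPL36A and RPL36AL are identical at 89.9% of positions with a longest identical stretch of 60 bases, so the split of their coding reads is uncertain too.

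RPL26L1, a copy of RPL26, fell in shScr from 842 and 947 normalized counts at day 0 to 575 and 627 by day 4 and 512 and 486 by day 10 (−0.84 ± 0.11, SE, adjusted p = 6.62e-05). RPL26 meanwhile rose by 0.59 ± 0.10 (0.000331). RPL22L1, whose product can replace RPL22 in the ribosome and which regulates splicing, fell from 1284 and 1340 to 833 and 764 (−0.72 ± 0.09, 4.88e-05), while RPL22 gave 0.12 ± 0.09 (0.23). In shIL1R cells RPL22L1 stood at 1202 and 1353 at day 0, then 1299 and 1360 by day 4 and 784 and 843 by day 10, so that its fall there lay after day 4. RPL7L1, which works in assembly of the large subunit, fell by 0.22 ± 0.08 on the log2 scale in shScr (0.0293), and missed without either shScr day 0 library (0.0541 and 0.170) or without shScr day 10 replicate 1 (0.141). RPS27L was the paralog that did not fall in level: 3352 and 3240 at day 0, then 4325 and 4394 by day 4 and 4164 and 4360 by day 10 in shScr (0.37 ± 0.14, 0.0412). It lost that call without any 1 of the shScr libraries or of the shIL1R day 0 libraries (0.0545 to 0.149). Its ratio fell because RPS27 rose more, from 9715 and 10014 to 16362 and 14300.

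RPL36A also fell in shScr, from 153 and 146 normalized counts at day 0 to 133 and 141 by day 4 and 93.2 and 89.1 by day 10 (−0.71 ± 0.17, SE, adjusted p = 0.00338). In shIL1R its day 10 libraries, at 141 and 128, lay below those of day 0 at 158 and 164 and gave −0.26 ± 0.17 (0.204), or −0.44 (0.0458) under library-total scaling. Its value is uncertain, as are those of RPL17 and RPS10: the read-through genes RPL36A-HNRNPH2, RPL17-C18orf32 and RPS10-NUDT3 overlap these 3 genes and are listed at 0 in all 12 libraries. The RPL36A paralog RPL36AL, in which the same protein is encoded almost unchanged, was lower at day 10 too (−0.49 ± 0.08 in shScr, 0.000317).

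Of the 3 MDM2-binding members, 2 were called higher in shScr cells, where 65.8% of the 79 members and 32.5% of all tested genes were. Under library-total scaling none of the 3 was called (limma adjusted p = 0.142 to 0.590). Whether the 3 changes differ from each other was not tested. RPL11 was at 11906 and 12341 normalized counts at day 0 and 16552 and 15241 at day 10 (0.39 ± 0.10, SE, adjusted p = 0.0041). RPL23 changed by 0.28 ± 0.08 (0.00953), a call lost without shScr day 0 replicate 1 (0.0607) or day 10 replicate 1 (0.0744). RPL5, which enters the large subunit together with RPL11 and the smallest ribosomal RNA, was at 16257 and 17101 at day 0 and 19094 and 17144 at day 10 (0.12 ± 0.09, 0.296). All 3 rose in shIL1R, RPL5 by 0.55 ± 0.09 (0.000436), RPL11 by 0.63 ± 0.10 (0.000174) and RPL23 by 0.73 ± 0.08 (1.69e-05). The difference of these changes between hairpins did not pass for any of the 3 (0.115, 0.348 and 0.0681). CDKN1A, a cell cycle inhibitor, rose by 2.98 ± 0.24 in shScr (1.22e-06) and 2.28 ± 0.24 in shIL1R (1.17e-05). MDM2 rose by 0.45 ± 0.11 in shScr (0.004) and gave −0.27 ± 0.11 in shIL1R (0.0531), a difference of −0.72 ± 0.16 (0.0389). Whether that difference keeps its call under other settings or with a library left out was not examined.

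Of 11 members listed for roles outside the ribosome (RPL5, RPL11, RPL13A, RPL22, RPL23, RPLP0, RPS14, RPS27A, RPS3, RPS6 and RPSA), 5 were called higher and 1 lower at day 10 in shScr, and 10 higher in shIL1R. The 79 members gave 65.8% higher and 7.59% lower in shScr and 92.4% higher in shIL1R. All tested genes gave 32.5% higher and 31.3% lower in shScr and 30% higher in shIL1R. Whether the 11 differ from the other members was not tested. RPL13A, which silences inflammatory mRNAs in the GAIT complex, was at 2974 and 2921 normalized counts in shScr at day 0, then 3115 and 3205 by day 4 and 4641 and 4291 by day 10. Its change to day 10 was 0.60 ± 0.08 in shScr (SE, adjusted p = 5.28e-05) and 1.00 ± 0.08 in shIL1R (1.43e-06). RPS14, whose loss underlies a myelodysplastic anaemia, rose by 0.50 ± 0.11 (0.00196) and 1.00 ± 0.11 (1.56e-05). RPS27A, made as a fusion with ubiquitin, rose by 0.36 ± 0.12 (0.0204) and 0.69 ± 0.12 (0.000445), and in shScr missed under library-total scaling (0.343), without either day 0 library (0.0916 and 0.0632) and without day 10 replicate 1 (0.116). RPL3, which shapes the peptidyl transferase centre, rose by 0.35 ± 0.08 (0.00375) and 0.70 ± 0.08 (3.66e-05), of which the first was not called under library-total scaling (0.12, 0.242). For RPL13A, RPS14, RPS27A and RPL3 the change was not called different between the hairpins.

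Related genes were taken from lists, to be read against all tested genes at day 10 against day 0, of which 32.5% were called higher and 31.3% lower in shScr and 30% and 30.3% in shIL1R. FAU, which encodes a ribosomal protein fused to a ubiquitin-like one and lies outside the naming rule, rose like the members (0.46 ± 0.08 in shScr, SE, adjusted p = 0.000483). Of 10 elongation factors and other TOP mRNAs, 5 were higher and 1 lower in shScr at day 10 against day 0, with EEF2 at 1.06 ± 0.10 (3.52e-06), EEF1G at 0.61 ± 0.09 (0.000123) and HNRNPA1 at −1.15 ± 0.12 (6.89e-06). Of 33 initiation factors 11 were higher, a share near that of all tested genes, and 7 lower, with EIF4B at 1.08 ± 0.09 (1.85e-06) and EIF1AX at −1.06 ± 0.10 (4.63e-06). The medians of these last 2 lists were 0.18 and 0.12, and both were below 0 when libraries were scaled to their totals (−0.05 and −0.11).

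Genes that make ribosomes were called lower more often than higher. Of 43 ribosome assembly factors 21 were lower and 7 higher in shScr (median −0.23), and 22 lower and 7 higher in shIL1R (median −0.31), against 31.3% and 30.3% of all tested genes called lower. RRS1, which helps to load RPL5 and RPL11, was at 1389 and 1452 normalized counts in shScr at day 0 and 468 and 421 at day 10 (−1.67 ± 0.16, SE, adjusted p = 4.03e-06). UTP20 (−1.53 ± 0.11, 5e-07), NOP56 (−1.08 ± 0.09, 2.1e-06) and GAR1 (−1.003 ± 0.13, 4.51e-05), which process or modify ribosomal RNA, fell too. Of 14 genes of the RNA polymerase I machinery, which transcribes ribosomal RNA, 9 were lower and 2 higher in shScr (median −0.57), led by TWISTNB (−1.39 ± 0.13, 4.02e-06). In shIL1R 8 were lower and 2 higher (median −0.39). Scaled to the library total, the assembly and polymerase lists had medians of −0.46 and −0.80 in shScr, and all tested genes −0.23.

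**Figure D5:**
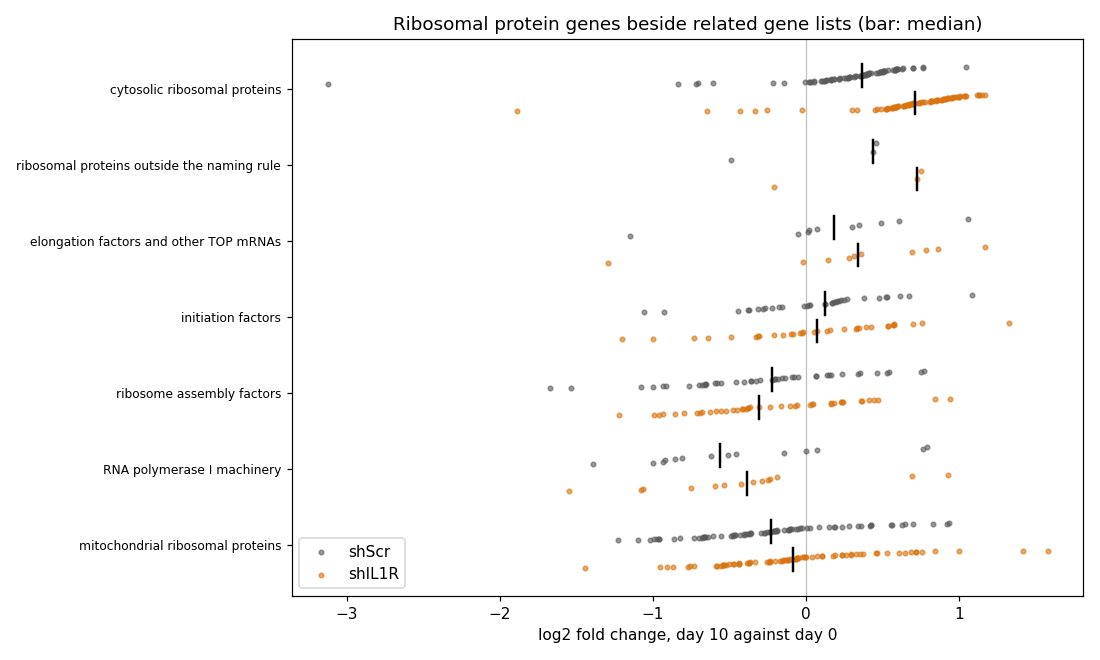
The log2 change from day 0 to day 10 of the ribosomal protein genes and of 6 related lists in shScr and shIL1R, with the median of each list as a bar. In shScr the members' median is 0.36, that of ribosome assembly factors −0.23 and that of RNA polymerase I genes −0.57.

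Mitochondrial ribosomal proteins serve a separate ribosome. Of 76 tested, 37 were lower and 13 higher in shScr at day 10 (median −0.23), and 25 lower and 18 higher in shIL1R (median −0.09), where the lower share was near the 30.3% of all tested genes. No test compared them with the cytosolic ones. Among 16 genes of mTORC1 and TOP control, activators and inhibitors together, 8 were higher and 2 lower in shScr and 7 higher and 2 lower in shIL1R. All tested genes gave 32.5% and 31.3% in shScr and 30% and 30.3% in shIL1R. Those called in shScr included the mTORC1 inhibitor DDIT4 at 2.94 ± 0.34 (SE, limma adjusted p = 2.12e-05) and its activator RHEB at −0.86 ± 0.10 (1.62e-05). The other called genes of this list are not named here, and mTORC1 activity was not tested. LARP1 gave −0.10 ± 0.08 (0.312). Of 18 tested ribosomal protein pseudogenes 7 were higher and 2 lower in shScr. RPLP0P2, a copy of RPLP0, was at 11.02 and 20.03 normalized counts in shScr at day 0, then 160 and 157 by day 4 and 955 and 1083 by day 10, and at 446 and 383 in shIL1R at day 10. It rose by 5.9999 ± 0.25 in shScr (1.64e-08) and 4.11 ± 0.25 in shIL1R (2.55e-07). The change of RPLP0P2 differed between hairpins by −1.89 ± 0.35 (0.023), a call not examined under other settings or with a library left out. Pseudogenes share sequence with their parents, so their values are uncertain.

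Members with and without a TOP start were set side by side as a description. In shScr at day 10 against day 0, 31 of the 45 with such a start were higher and 3 lower (median log2 change 0.39), and 12 of the 19 without were higher and 2 lower (median 0.28), against 32.5% and 31.3% of all tested genes. In shIL1R 42 were higher and 1 lower (median 0.82), against 17 and 2 (median 0.65), where all tested genes gave 30% and 30.3%. Of the matched members called lower in shScr, RPSA, RPL22L1 and RPL36A are among those with it, and RPL26L1 and RPL7L1 among those without. RPS28, the strongest riser, is among those without it by this rule, although its printed sequence has a run of C and T from the base after the annotated start. RPL28 and RPS24, the next largest rises in shScr, are among those with it. No test compared the members with and without it.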

How the data were processed

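Poly(A) RNA of 12 libraries in 6 groups was measured, and the values used were normalized counts per gene, a signal deposited by the authors. The submitters' processing notes name TopHat for alignment (hg19), HTSeq for counting and DESeq2 for normalization, with no version. Which annotation and strand setting HTSeq used is not given in the sources used here. Dividing each library by its smallest value above 0 gave whole reads for 100% of values (within 0.001 reads), 24140324 to 30127727 per library.

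The 13924 genes at 10 or more in 2 or more libraries entered a limma 3.58.1 fit (R 4.3.3) of log2(value + 1) with 6 group means, using all 12 libraries and a trended eBayes prior (4.98 prior, 6 residual degrees of freedom). Fold changes on this scale understate those of low genes. In 11 contrasts two-sided p-values were adjusted after Benjamini and Hochberg over all tested genes, with a call below 0.05. Paralog ratios were compared with an exact permutation test that did not keep the hairpins apart (scipy 1.17.1). Start sequences came from RefSeq (GRCh38.p14), coding sequences and lengths from GENCODE 29, aligned with biopython 1.88. Alternatives were a pseudocount of 5, no filter or a filter of 50, TMM or total scaling, the compared groups alone, the replicate number as a block, count tests on the recovered reads (edgeR 4.0.16, DESeq2 1.42.0), and each library left out. The limma step was tested on simulated data. The members and lists were chosen with earlier results of these data known. Named with full statistics were at most 6 called members each way, taken by size of change, of each shScr day comparison and hairpin comparison, the paralog pairs, members with known roles outside the ribosome, the 3 highest and 3 lowest members, and up to 4 called genes of a related list. RPLP2, RPLP1 and the shIL1R leaders were named after their values were seen. A few genes are counted but not reported here by name.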

Additional observations from a re-analysis of the deposited data

Results flagged for a closer look

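For 4 members the change from day 0 to day 10 differed between the hairpins in the test of that difference (limma, adjusted over all tested genes). RPL39L fell less in shIL1R than in shScr, with a difference of changes of 1.23 on the log2 scale, and RPSA, which fell in shScr, had a difference of 0.58. RPS16 and RPL10, which did not pass in shScr and rose in shIL1R, had differences of 0.57 and 0.54. All 4 calls were lost with no filter on low values (adjusted p = 0.0543 to 0.0718), with the 4 groups fitted alone (0.0714 to 0.0952), without either shScr day 0 library (0.102 to 0.159), without either shIL1R day 0 library (0.0621 to 0.183) and without shScr day 10 replicate 2 (0.140 to 0.161).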

How the results depend on the processing

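With 2 libraries a group, calls between the hairpins depended on the settings more than calls between days. Scaled to the library total, members called higher and lower were 25 and 10 at day 10 against day 0 in shScr, 26 and 7 at day 10 against day 4 in shScr and 1 higher at day 4, where the members' median turned to −0.0595. At day 10 the hairpin comparison then gave 40 higher, and the difference of the changes to day 10 gave 21. Under that scaling the day 10 changes in shScr turned below 0 for RPL7 (−0.10), RPL22 (−0.11), RPL5 (−0.12), RPS6 (−0.10), RPS3 (−0.0695), RPLP0 (−0.21) and RPS2 (−0.0711), since all genes shifted by −0.23. Of these RPLP0 was called lower (limma adjusted p = 0.0293), as were RPL10 in shScr (−0.24, 0.0218) and RPSA (−0.21, 0.0370) and RPL36A (−0.44, 0.0458) in shIL1R. The shScr day 10 calls of RPL3, RPL11, RPL23, RPL39, RPS27A and RPS27L were lost (0.142 to 0.590), and so was that of RPL22 in shIL1R (0.128).

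With no filter the higher counts were 1 (shScr day 4), 5 (hairpins at day 10) and 0 (difference of changes to day 10), where more genes were tested. With the compared groups alone they were 8 (shScr day 4), 5 (shIL1R day 10 against day 4), 0 (hairpins at day 10) and 0 (difference of changes to day 10). DESeq2 called 5 (hairpins at day 4), 19 (hairpins at day 10), 6 and 29 (differences of changes to day 4 and day 10). The cause was not tested. Whether libraries of the same replicate number belong together is not settled by their correlations, −0.102 to 0.231 over 15 pairs of groups. The highest were within shIL1R, 0.231 for day 0 with day 4 and 0.203 for day 4 with day 10. With the replicate number as a block, 53 members were higher and 6 lower in shScr at day 10, 10 were higher between hairpins at day 10 and 5 differed in their change, and no count moved by over 1.5 times.

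Leaving out each library in turn gave 1 to 8 higher and 2 to 4 lower (shScr day 4), 21 to 56 higher and 1 to 6 lower (shScr day 10 against day 4), 0 to 2 lower (shIL1R day 4), 23 to 65 higher (shIL1R day 10 against day 4), 0 to 17 higher and 0 to 1 lower (hairpins at day 4), 0 to 36 higher (hairpins at day 10) and 0 to 50 higher (difference of changes to day 10). The shScr day 10 change ranged from −0.0839 to 0.0742 for RPL10 (0.00578 without shScr day 0 replicate 2) and from −0.0154 to 0.0558 for RPLP0, and that of RPSA in shIL1R from −0.127 to 0.0735 (0.0142 without shIL1R day 0 replicate 1). Paralog ratios ranged from −3.45 to −3.02 (RPL39L), −1.54 to −1.44 (RPL26L1), −0.961 to −0.838 (RPL22L1), −0.651 to −0.450 (RPL7L1) and −0.378 to −0.292 (RPS27L), with adjusted exact permutation p of 0.0571 to 0.0686, since 3 against 4 libraries allow no less than 0.0571. For RPL7L1 it was −0.352 in shScr alone and −0.797 in shIL1R alone. Of the counts of called members, 180 under the other alternatives and 212 with a library left out stayed within 1.5 times, and 18 and 52 did not.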
